A study of Homo sapiens with 6 samples.

Results

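The 10 genes described here are H19, MEG3, DLK1, PEG3, PEG10, SNRPN, CDKN1C, KCNQ1OT1, NNAT and MEST, all known in humans to be imprinted. They were taken by gene symbol from a table of read counts for 58735 genes, and each symbol had 1 row. Bulk mRNA-seq had been run on H1155, a cell line grown from a neuroendocrine large cell lung cancer, as 3 libraries labelled WT and 3 labelled GFI1-KO. Both groups were cultured without treatment and differ, by their labels, only in the editing of GFI1, which encodes a zinc finger transcriptional repressor. Per the study's methods, GFI1-KO cells carried CRISPR/Cas9 edits made with pairs of guide RNAs directed at the GFI1 promoter region, and monoclonal GFP-positive cells had been sorted, so that the group is a model of edited clones and not of a mixed population. How many clones the 3 libraries represent is not given in the sources used here. The labels do not say that libraries of a group came from separate cultures, and p-values therefore measure only the spread between these libraries, which may be technical.

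Imprinted genes are expressed from 1 parent's allele, because DNA methylation set in the germ line marks only 1 allele at an imprinting control region. They lie in clusters in which a paternally expressed gene is often paired with a maternally expressed non-coding RNA, or the reverse, and many act on fetal growth. Loss or gain of expression of these genes is common in tumors. Of the 10 genes, H19, MEG3 and CDKN1C are expressed from the maternal allele, and DLK1, PEG3, PEG10, SNRPN, KCNQ1OT1, NNAT and MEST from the paternal allele. The counts are summed over both alleles, so the allele of origin was not measured.

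H19 and MEG3 are long non-coding RNAs with mature microRNAs embedded in their transcripts, as MEST, a coding gene, has in an intron. The RefSeq mature sequences (GRCh38.p14) are shown because these are the regulatory products that the 3 host genes carry, with the seed (bases 2 to 8) in capitals. No seed is shared among them. The rows of their precursors were at 0 counts in all 6 libraries, which for poly(A)-selected RNA gives no measure of the mature microRNAs.
hsa-miR-675-5p, in H19, chr11:1996800-1996822, minus strand: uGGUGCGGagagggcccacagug
hsa-miR-675-3p, in H19, chr11:1996768-1996787, minus strand: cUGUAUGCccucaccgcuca
hsa-miR-770-5p, in MEG3, chr14:100852409-100852431, plus strand: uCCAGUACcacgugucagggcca
hsa-miR-2392, in MEG3, chr14:100814551-100814570, plus strand: uAGGAUGGgggugagaggug
hsa-miR-335-5p, in MEST, chr7:130496126-130496148, plus strand: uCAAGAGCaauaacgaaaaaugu
hsa-miR-335-3p, in MEST, chr7:130496162-130496183, plus strand: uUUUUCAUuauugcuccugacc

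RefSeq promoter windows (250 bases before to 50 after a transcript start, GRCh38.p14) were matched for 4 of the 10 genes: H19, MEG3, SNRPN and MEST. The windows of H19 and MEG3 are printed because both of these RNAs had fewer counts in every GFI1-KO library than in any WT library. Capitals mark TGCCGC, the hexamer bound in its methylated form by the imprint-keeping factor ZFP57, read on either strand.
H19, chr11:2001217-2001516, minus strand: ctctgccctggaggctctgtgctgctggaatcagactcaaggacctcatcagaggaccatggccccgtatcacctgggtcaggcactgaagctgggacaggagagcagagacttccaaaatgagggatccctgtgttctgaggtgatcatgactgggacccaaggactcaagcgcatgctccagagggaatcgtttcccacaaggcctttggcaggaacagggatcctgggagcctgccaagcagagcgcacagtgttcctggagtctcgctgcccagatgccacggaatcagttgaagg
MEG3, chr14:100825858-100826157, plus strand: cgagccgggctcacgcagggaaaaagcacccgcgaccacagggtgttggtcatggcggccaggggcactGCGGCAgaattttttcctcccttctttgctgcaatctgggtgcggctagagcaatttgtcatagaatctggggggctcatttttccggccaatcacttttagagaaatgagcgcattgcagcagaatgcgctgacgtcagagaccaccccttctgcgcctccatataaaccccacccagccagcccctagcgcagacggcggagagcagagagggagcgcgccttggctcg
The MEG3 window is 1 of 3 overlapping windows in the table and lies inside the bounds of the deposited gene, which has several annotated starts. It held 1 copy of TGCCGC, read as its reverse complement, and 19 CpG dinucleotides. The H19 window held no copy and 6 CpG. Over all 35116 promoter windows of this length, 16.7% held TGCCGC on either strand, and the median number of CpG was 14. AAATCAC, which contains the core of the sequence that GFI1 binds, was in 3.14% of all windows on either strand and in no window of the 4 genes. These matches describe letters in the windows only.

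Each library held 14882914 to 17692882 counts. Counts of GFI1 itself (chromosome 1, 92474762 to 92486876, hg38) were 153, 106 and 125 in the WT libraries and 174, 188 and 170 in the libraries labelled GFI1-KO. GFI1 was thus not lower in GFI1-KO (edgeR quasi-likelihood test, log2 fold change 0.31, SE 0.12, adjusted p = 0.0273), a call that was lost with DESeq2 (adjusted p = 0.127), after correction for GC content and length (0.18, adjusted p = 0.214), and without WT replicate 2, WT replicate 3 or GFI1-KO replicate 2. A gene-level count does not show whether its protein was made. The paper reports deletion of GFI1 in H1155 cells with an immunoblot of the protein, which was not assessed here. All directions below are those between the libraries as labelled. Of 10 neuroendocrine markers, all were detected, and their summed level was 1840 to 1874 CPM (counts scaled to a common library total) in WT and 2778 to 2801 in GFI1-KO. The 6 fibroblast markers summed to 190.6 to 195.9 CPM in WT and 133 to 138 in GFI1-KO, mostly from COL1A2, with the defining marker DCN at 0 in all libraries. Members of that list moved in opposite directions: COL3A1 had 2, 3 and 2 counts in WT and 129, 143 and 170 in GFI1-KO, and PDGFRB had 136, 128 and 135 against 17, 15 and 15. The 4 endothelial markers summed to 27.0 to 30.4 and 13.3 to 14.9 CPM, mostly from PECAM1, and the 5 leukocyte markers to at most 0.509 CPM. Whether a change in cell make-up had a part in the results was not tested, and in bulk RNA fewer cells of a type and less RNA per cell cannot be told apart. Across all genes tested the log2 fold change rose with GC content (Spearman's rho 0.574 over 17415 genes, a description, since genes are not independent and share the same 6 libraries). For listed genes named below, the log2 fold change corrected for GC content and length is therefore given where it changes a call, a sign or a size by over 1.5 times.

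Of the 10 imprinted genes, 8 had enough counts to be tested, and H19 and PEG3 did not. DLK1 was called higher in GFI1-KO (adjusted p at most 0.05, edgeR), MEG3, CDKN1C, PEG10 and KCNQ1OT1 were called lower, and SNRPN, NNAT and MEST were not called. MEG3 passed the filter on low counts through its WT libraries alone, so its call is a description of a gene that was near the floor in GFI1-KO. The 2 groups differed at most genes: of 17514 genes tested, 72.4% were called, 36.5% higher and 35.9% lower. The 5 called of 8 were thus no larger a share than over all genes. WT and GFI1-KO libraries were fully separated in 5 of the 8, against 74.4% of all genes. The median log2 fold change of the 8 was -0.47, with a range from -2.07 to 1.13, beside a median of 0.00 over all genes. Of the 6 tested genes of the paternal allele, 1 was higher and 2 were lower, and both tested genes of the maternal allele were lower. Among these and the 40 other imprinted genes described below, 6 of 12 tested maternally expressed genes were higher and 6 lower. Of 21 tested paternally expressed genes, 3 were higher and 11 lower. With GC content and length corrected, 6 maternal genes rose and 5 fell, and 4 paternal genes rose and 6 fell. The 2 maternal members thus do not stand for maternally expressed genes at large.

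**Figure D1:**
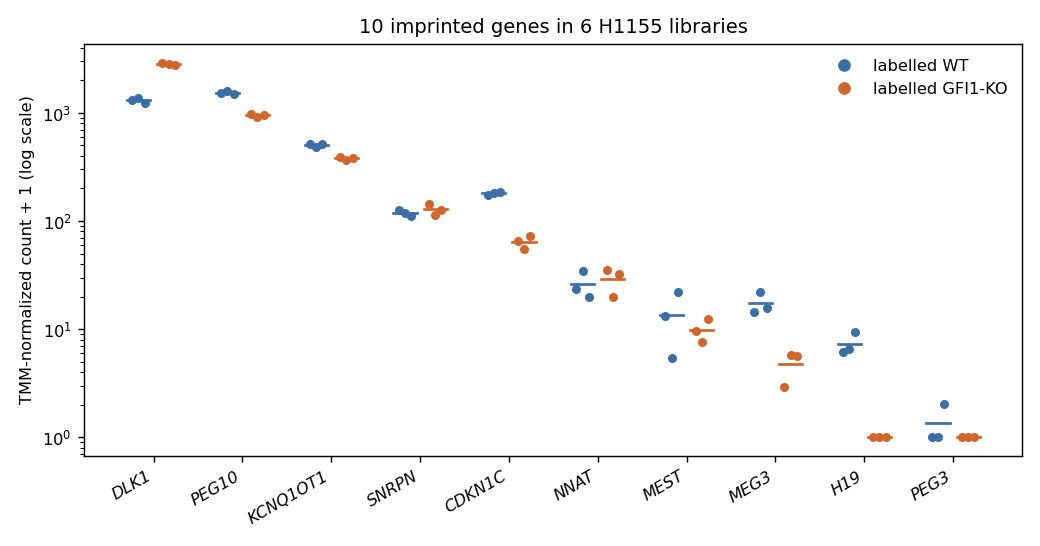
TMM-normalized counts plus 1 (log scale) of the 10 imprinted genes, with 1 point per library for 3 WT and 3 GFI1-KO libraries and a bar at the mean of each group. DLK1 stood higher in all 3 GFI1-KO libraries, CDKN1C, PEG10, KCNQ1OT1 and MEG3 stood lower, H19 had a few counts in WT and 0 in GFI1-KO, and the groups overlapped for SNRPN, NNAT and MEST.

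In the DLK1-MEG3 domain of chromosome 14, the paternally and the maternally expressed gene moved in opposite directions. DLK1 (ENSG00000185559, 100725705 to 100738224, plus strand) encodes a transmembrane ligand related to the Notch ligands, which marks progenitor and endocrine cells. It had 1272, 1236 and 1171 counts in WT and 3044, 2995 and 2958 in GFI1-KO. The groups lay far apart and each was tight, with normalized counts of 1299.9 ± 69.6 in WT and 2841 ± 58.4 in GFI1-KO (SD, n = 3 each). DLK1 was 2.19-fold higher in GFI1-KO (log2 fold change 1.13, SE 0.04, edgeR adjusted p = 2.63e-18). Leaving out any 1 library gave log2 fold changes of 1.08 to 1.16, and correction for GC content and length gave 0.84.

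MEG3 (ENSG00000214548, 100779410 to 100861031, plus strand) is the maternally expressed non-coding RNA of the domain, which has growth-limiting activity in several tumor types. It had 13, 19 and 14 counts in WT and 2, 5 and 5 in GFI1-KO. All GFI1-KO libraries were below all WT libraries, at a depth of a few reads. Normalized counts were 16.3 ± 4.12 in WT and 3.78 ± 1.63 in GFI1-KO (SD, n = 3 each), 4.19-fold lower (log2 fold change -2.07, SE 0.47, edgeR adjusted p = 0.000332). The log2 ratio of DLK1 to MEG3 counts was 6.34 ± 0.297 in WT and 9.67 ± 0.782 in GFI1-KO (SD, n = 3 each), a difference of 3.33. An exact two-sided permutation test gave p = 0.1, the smallest that 3 against 3 libraries allow, and 0.1 again after Benjamini-Hochberg adjustment over the 3 gene pairs compared. Since MEG3 passed the filter on low counts through its WT libraries alone, its p-value and this ratio are descriptions only.

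The other non-coding RNAs read from the maternal allele of this domain were sparse. MEG9 had 23, 20 and 18 counts in WT and 13, 8 and 10 in GFI1-KO (log2 fold change -1.13, SE 0.35, edgeR adjusted p = 0.00621). DESeq2 did not make this call, and the GFI1-KO libraries of MEG9 would not have passed the filter on low counts by themselves. MEG8 had 3, 9 and 2 counts in WT and 1, 1 and 0 in GFI1-KO and was not tested. Of the paternally expressed genes beside DLK1, RTL1, a retrotransposon-derived gene, had 6, 8 and 14 against 9, 15 and 8 counts and was not tested. DIO3, the enzyme that inactivates thyroid hormone, had 16, 14 and 6 counts in WT and 15, 17 and 6 in GFI1-KO, groups that overlapped (log2 fold change -0.08, SE 0.43, edgeR adjusted p = 0.872; -0.73 with GC content and length corrected, adjusted p = 0.153).

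In the H19-IGF2 domain of chromosome 11, H19 (ENSG00000130600, 1995176 to 2001470, minus strand) is the maternally expressed non-coding RNA that shares enhancers with IGF2. H19 had 5, 5 and 8 counts in WT and 0, 0 and 0 in GFI1-KO. Against a floor of 3 counts per GFI1-KO library, which is 0.170 to 0.171 CPM in that group, H19 was at least 2.23-fold lower. This bound takes the WT mean, from 18 counts in all, as it stands. H19 did not pass the filter on low counts. Without that filter it was called lower by edgeR (adjusted p = 0.000255), and DESeq2 also called it (adjusted p = 0.00248).

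IGF2 (ENSG00000167244), the paternally expressed growth factor of this domain, is a partner of H19 rather than a member of the 10. It had 14, 10 and 11 counts in WT and 28, 36 and 40 in GFI1-KO, with no overlap (log2 fold change 1.40, SE 0.31, edgeR adjusted p = 0.000281). Correction for GC content and length reduced its log2 fold change to 0.89 (adjusted p = 0.0169). The annotation holds 2 rows named IGF2, the other at 0 counts, and 40.7% of the 50-base words of this transcript are shared with another gene, so its level is uncertain. The log2 ratio of IGF2 to H19, with 1 count added, was 0.87 ± 0.453 in WT and 5.14 ± 0.257 in GFI1-KO (SD, n = 3 each), a difference of 4.27 (exact two-sided permutation p = 0.1, the smallest possible, and 0.1 adjusted over 3 pairs). With H19 set to at least 3 counts in each library, the linear ratios were 2.8, 2 and 1.38 in WT and 9.33, 12 and 13.3 in GFI1-KO, where each is a lower bound. As H19 did not pass the filter on low counts, this ratio too is a description only.

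Further along chromosome 11, CDKN1C and KCNQ1OT1 belong to another imprinted domain, in which transcription of KCNQ1OT1 from the paternal allele silences its neighbours there. CDKN1C (ENSG00000129757, 2883213 to 2885773, minus strand) encodes p57KIP2, an inhibitor of cyclin-dependent kinases expressed from the maternal allele. It had 170, 164 and 175 counts in WT and 67, 57 and 76 in GFI1-KO. The groups were well apart, at normalized counts of 179.8 ± 5.05 in WT and 63.1 ± 8.78 in GFI1-KO (SD, n = 3 each). CDKN1C was 2.84-fold lower in GFI1-KO (log2 fold change -1.51, SE 0.14, edgeR adjusted p = 2.89e-10), and -2.25 on the log2 scale after correction for GC content and length.

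KCNQ1OT1 (ENSG00000269821, 2608328 to 2699994, minus strand) is transcribed antisense to KCNQ1. Its counts were 499, 436 and 493 in WT and 407, 384 and 404 in GFI1-KO. All GFI1-KO libraries were below all WT libraries, by a smaller margin than for CDKN1C, with normalized counts of 504 ± 18.5 and 377 ± 12.2 (SD, n = 3 each). The log2 fold change was -0.42 (SE 0.07, edgeR adjusted p = 6.99e-06). Corrected for GC content and length it was -0.08 (adjusted p = 0.33), and the call was lost. The strand setting of the counting is not given in the sources used here, so reads of KCNQ1OT1 and KCNQ1 cannot be told apart with certainty. The log2 ratio of CDKN1C to KCNQ1OT1 was -1.49 ± 0.0718 in WT and -2.59 ± 0.171 in GFI1-KO (SD, n = 3 each), a difference of -1.10 (exact two-sided permutation p = 0.1, the smallest possible, and 0.1 adjusted over 3 pairs). With counts corrected for GC content and length the difference was -2.19.

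CDKN1C stood apart in sign from other maternally expressed genes of its domain. PHLDA2, a growth-limiting pleckstrin-homology protein of the placenta, had 542, 548 and 444 counts in WT and 1214, 1288 and 1301 in GFI1-KO (log2 fold change 1.15, SE 0.07, edgeR adjusted p = 3.02e-14), reduced to 0.37 by correction for GC content and length. SLC22A18, a membrane transporter, had 177, 143 and 167 counts against 326, 382 and 421 (log2 fold change 1.05, SE 0.10, edgeR adjusted p = 5.61e-10), reduced to 0.46. KCNQ1, a potassium channel, had 13, 7 and 5 counts against 20, 29 and 24 (log2 fold change 1.37, SE 0.38, edgeR adjusted p = 0.00216), a call lost after the correction (0.72, adjusted p = 0.108), and its WT libraries would not have passed the filter on low counts by themselves. ASCL2, a transcription factor, had 1 count in all and was not tested.

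PEG10 (ENSG00000242265, chromosome 7, 94656325 to 94669695, plus strand) is a paternally expressed gene derived from a retrotransposon, whose protein forms virus-like capsids. It had 1482, 1420 and 1412 counts in WT and 1028, 957 and 1016 in GFI1-KO. Each GFI1-KO library lay below each WT library, and normalized counts were 1524 ± 45.3 and 948 ± 37.1 (SD, n = 3 each). PEG10 was 1.61-fold lower (log2 fold change -0.69, SE 0.05, edgeR adjusted p = 1.02e-12), or -0.46 after correction for GC content and length. Its head-to-head partner SGCE, a sarcoglycan, fell by 0.76 on the log2 scale (SE 0.07, edgeR adjusted p = 3.61e-10), but its sign turned with the correction (0.01, adjusted p = 0.893). PPP1R9A, a neuronal regulator of protein phosphatase 1 in the same domain, had 1356, 1265 and 1308 counts in WT and 899, 848 and 858 in GFI1-KO (log2 fold change -0.75, SE 0.05, edgeR adjusted p = 2.12e-13; -0.29 after correction).

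SNRPN (ENSG00000128739, chromosome 15, 24823637 to 24978723, plus strand) encodes a splicing protein and starts at the imprinting center of the Prader-Willi and Angelman region. It had 122, 107 and 104 counts in WT and 149, 118 and 134 in GFI1-KO. The normalized counts overlapped, at 118 ± 7.92 and 127 ± 15.1 (SD, n = 3 each), and no difference was called (log2 fold change 0.11, SE 0.13, edgeR adjusted p = 0.483; 0.0092 with GC content and length corrected). SNURF is read from the same transcripts as SNRPN, and 33.7% of the 50-base words of SNRPN are shared with another gene, so its level is uncertain. SNURF had 31, 19 and 27 counts against 20, 14 and 17 (log2 fold change -0.75, SE 0.31, edgeR adjusted p = 0.0353), and this call was lost under 8 of the alternatives, among them the GC content and length correction (-0.30, adjusted p = 0.416).

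Other genes of the chromosome 15 region moved in both directions. NDN, a paternally expressed growth suppressor of neurons, had 955, 914 and 1031 counts in WT and 445, 468 and 468 in GFI1-KO (log2 fold change -1.23, SE 0.06, edgeR adjusted p = 7.35e-16). MAGEL2, its relative of the MAGE family, had 90, 77 and 94 counts against 23, 47 and 45 (log2 fold change -1.34, SE 0.21, edgeR adjusted p = 3.63e-06). MKRN3, a ubiquitin ligase beside them and also paternally expressed, had 77, 102 and 98 counts against 190, 128 and 158 (log2 fold change 0.62, SE 0.16, edgeR adjusted p = 0.000941; 1.09 with GC content and length corrected), so that these neighbours did not share a sign. SNHG14, the long host RNA of the small nucleolar RNAs, went from 3599, 3254 and 3621 counts to 2412, 2228 and 2346 (log2 fold change -0.74, SE 0.04, edgeR adjusted p = 1.41e-15), but only -0.10 after correction for GC content and length. UBE3A, the ubiquitin ligase lost in Angelman syndrome, was at -0.35 (SE 0.04, edgeR adjusted p = 5.26e-09), and its sign turned with the correction (0.20, adjusted p = 2.58e-05). ATP10A, a phospholipid transporter, had 7, 2 and 3 counts in WT and 35, 24 and 23 in GFI1-KO (log2 fold change 2.58, SE 0.44, edgeR adjusted p = 8.2e-06), and passed the filter on low counts through its GFI1-KO libraries alone.

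NNAT, MEST and PEG3 were at low counts. NNAT (ENSG00000053438, chromosome 20, 37521206 to 37523693, plus strand) encodes neuronatin, a small membrane proteolipid of neurons and endocrine cells, and lies within BLCAP on the opposite strand. It had 22, 30 and 18 counts in WT and 36, 20 and 33 in GFI1-KO, with overlapping groups (normalized counts 24.9 ± 7.44 and 28.1 ± 8.09, SD, n = 3 each). Its log2 fold change was 0.18 (SE 0.30, edgeR adjusted p = 0.602), with the sign turned by the GC content and length correction (-0.36, adjusted p = 0.32). BLCAP, the gene around it, had 1101, 990 and 982 counts against 746, 682 and 678 (log2 fold change -0.71, SE 0.06, edgeR adjusted p = 2.43e-11; -0.44 with GC content and length corrected).

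MEST (ENSG00000106484, chromosome 7, 130486171 to 130506465, plus strand) encodes a protein of the alpha/beta hydrolase fold. Its counts were 12, 4 and 20 in WT and 9, 7 and 12 in GFI1-KO, and the groups overlapped (log2 fold change -0.51, SE 0.46, edgeR adjusted p = 0.326). Without WT replicate 3 the value was 0.05, so its sign rests on 1 library. KLF14, a maternally expressed transcription factor of the same domain, had 29, 32 and 25 counts against 83, 57 and 69 (log2 fold change 1.12, SE 0.23, edgeR adjusted p = 8.56e-05; 0.69 with GC content and length corrected). CPA4 and MESTIT1 were not tested. PEG3 (ENSG00000198300, chromosome 19, 56810077 to 56840728, minus strand), a zinc finger gene silent in many tumor lines, had 1 count in 1 WT library and 0 in the other 5, so a difference was not detectable in these counts. PEG3 lies within the span of ZIM2 on the same strand, and 48.4% of its sequence words, counted as for SNRPN, are shared with another gene. How shared reads were counted is not given, so the level of PEG3 is uncertain beyond the limit of depth. ZIM2 had 2, 17 and 14 counts in WT and 11, 8 and 10 in GFI1-KO (log2 fold change -0.35, SE 0.50, edgeR adjusted p = 0.538), and MIMT1 was at 0 in all libraries.

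Compared per length, as FPKM (CPM divided by gene length in kb), the 10 genes covered a wide range of levels. In WT, DLK1 (14.9 ± 0.794) and PEG10 (13.8 ± 0.410) had the highest levels, and their ranges overlapped (SD, n = 3 each). CDKN1C (4.40 ± 0.126) and SNRPN (2.09 ± 0.140) followed, then NNAT, KCNQ1OT1, MEST and H19, the last pair overlapping, with MEG3 and PEG3 lowest. In GFI1-KO, DLK1 (32.1 ± 0.633) was separated from PEG10 (8.50 ± 0.330), and SNRPN (2.22 ± 0.264) stood above CDKN1C (1.53 ± 0.213), whose range overlapped that of NNAT (1.27 ± 0.364). KCNQ1OT1, MEST and MEG3 came next, with H19 and PEG3 at 0. The order of CDKN1C and SNRPN was thus exchanged between the groups.

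Genes around the members that are on neither imprinted list were read in the same fit, over all tested genes with any part within 1 Mb. The counts below stand beside 36.5% higher and 35.9% lower over all genes tested. Around DLK1, 4 of 14 unlisted genes rose and 5 fell, their median was -0.17 on the log2 scale, and none was above DLK1. Around MEG3, 4 of 14 were higher and 6 lower, and 1 was below MEG3 (AL355032.1, log2 fold change -4.33). Around CDKN1C, 10 of 22 were higher and 4 lower (median 0.33; -0.06 with GC content and length corrected), and none was below CDKN1C. Around PEG10, 2 of 10 were higher and 5 lower (median -0.061; 0.18 with the correction). The 2 called higher were TFPI2 (log2 fold change 2.31) and ASB4 (2.04), opposite in sign to PEG10. In this window 3 genes had values below that of PEG10 (GNG11 at -5.06, PON1 at -1.98 and CASD1 at -0.89 on the log2 scale). Around SNRPN, all 5 had values below that of SNRPN, of which PWAR6 (-1.60), AC124312.5 (-1.04) and PWAR5 (-0.55) were called lower and AC124312.2 (-0.62) and SNORD116-24 (-0.50) were not called. SNORD116-24, PWAR5 and PWAR6 belong to the Prader-Willi region itself and were on neither list. AC124312.5 and AC124312.2 start beside PWAR5 and PWAR6, at 168 and 208 kb from the start of SNRPN. The 5 are thus no contrast from outside the imprinted region. Other windows also hold unlisted genes that lie within imprinted domains. Examples are SLC22A18AS, 18 kb from the start of CDKN1C, and DIO3OS in the windows of DLK1 and MEG3. Being unlisted thus does not place a neighbour outside an imprinted domain. The neighbours named here were chosen after their values were seen. For KCNQ1OT1, H19, NNAT, MEST and PEG3 the windows held 20 to 51 tested genes, with medians between -0.20 and 0.37. With the correction the median changed sign for the windows of H19 (0.22 to -0.14) and KCNQ1OT1 (0.37 to -0.021). The windows of DLK1 and MEG3, and those of H19, KCNQ1OT1 and CDKN1C, share genes, and no test was made of these differences.

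A list of 40 other imprinted genes gave 30 that were tested, with 9 higher (30%), 17 lower (56.7%) and 4 not called. Of all genes tested, 36.5% were higher and 35.9% lower. The median log2 fold change of the 30 was -0.40, beside 0.00 over all genes. With GC content and length corrected, 10 rose (33.3%) and 11 fell (36.7%), beside 32.6% and 28.1% of all genes. The corrected median was -0.19, beside 0.02 over all genes, so the lean toward lower values was smaller with the correction. The 24 listed genes that lie in the domains of the 10 genes are described above (18 tested, 7 higher, 9 lower). Of the 16 in other domains, 12 were tested, with 2 higher and 8 lower. The 2 called higher were IGF2R, a receptor that clears IGF2 (log2 fold change 0.28, SE 0.04, edgeR adjusted p = 1.13e-07), and GRB10, a signaling adaptor that limits growth (0.11, adjusted p = 0.0215), whose call was lost under 6 alternatives, among them the GC content and length correction (0.031, adjusted p = 0.509). NLRP2, an oocyte and inflammasome gene, had 28, 25 and 14 counts in WT and 0 in all GFI1-KO libraries, at least 8.33-fold lower against a floor of 3 counts per library (edgeR adjusted p = 4.27e-08), and passed the filter on low counts through its WT libraries alone. HYMAI, a non-coding RNA (-0.88, edgeR adjusted p = 0.0212, lost under 5 alternatives, among them that correction at -0.53, adjusted p = 0.173), and ZNF331, a zinc finger gene (-0.79, edgeR adjusted p = 1.38e-09), had the next lowest values.

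Of 17 genes that set, keep or erase imprint marks, 13 were tested, of which 4 rose (30.8%), 6 fell (46.2%) and 3 were not called. For comparison, 72.4% of all genes tested were called, 36.5% higher and 35.9% lower. The median of the 13 was -0.05 on the log2 scale. DNMT1, the maintenance DNA methyltransferase, had 5688, 5468 and 5991 counts in WT and 8375, 8539 and 8426 in GFI1-KO (log2 fold change 0.40, SE 0.03, edgeR adjusted p = 3.39e-11; 0.15 after correction for GC content and length). The de novo methyltransferase DNMT3B was at 0.46 (edgeR adjusted p = 0.000123), a call lost with the correction (0.21, adjusted p = 0.0623), and the histone methyltransferase EHMT2 at 0.45 (edgeR adjusted p = 3.76e-10), with its sign turned by it (-0.07, adjusted p = 0.129). TET1, which oxidizes methylated cytosine, had 427, 324 and 353 counts in WT and 190, 177 and 195 in GFI1-KO (log2 fold change -1.13, SE 0.09, edgeR adjusted p = 3.82e-11; -0.76 after correction). The histone demethylase KDM1B (-0.35, edgeR adjusted p = 2.12e-06) and TET2 (-0.33, edgeR adjusted p = 1.71e-05) were called lower only without the correction, with which KDM1B was at -0.06 (adjusted p = 0.35) and the sign of TET2 turned (0.03, adjusted p = 0.672). DNA methylation was not measured in these libraries.

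For each of the 5 members with a mean of at least 100 counts, the gene most like it over the 6 libraries was found among 11818 unlisted genes as the smallest root mean square difference of centered log2 normalized counts. It was SLC38A7 for DLK1 (0.0165), ENPP1 for PEG10 (0.0190), POU3F1 for SNRPN (0.0446), PROX1 for CDKN1C (0.0407) and THUMPD3 for KCNQ1OT1 (0.00897). Normalized counts of PROX1 were 467 in WT and 161 in GFI1-KO, and those of SLC38A7 were 357 and 766. With 2 groups and 6 libraries this likeness is mainly that of the difference between the groups.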

How the data were processed

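Poly(A)-selected RNA of untreated H1155 cells had been sequenced as 3 WT and 3 GFI1-KO libraries, and groups were taken from the labels. The authors deposited raw read counts per gene in 1 table of the whole series, with gene coordinates and lengths. The paper's methods name Hisat2 and featureCounts for alignment and counting, whereas the submitters' processing notes name Bowtie2 and HTSeq with hg38, and this difference could not be settled. Counting by strand and the treatment of reads that map to several genes are not given in the sources used here.

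The 10 members, the lists of 40 other imprinted genes, 17 imprint factors and cell type markers, and the tests were chosen with earlier results of these data known. Counts were filtered (filterByExpr, minimum count 10), scaled by TMM and fitted with the quasi-likelihood test of edgeR 4.0.16 in R 4.3.3 over 17514 genes, with Benjamini-Hochberg adjustment over all of them and a threshold of 0.05. For normalized counts, each count was divided by its library's TMM-scaled size and multiplied by the mean of these sizes. FPKM were computed from the counts, the deposited gene lengths and the library totals. The correction for GC content and length used spline offsets (5 degrees of freedom) over 17415 genes, with GC content from GENCODE 44. Of the 58735 gene IDs, 58207 were in that release. Sharing of transcript sequence was counted as the percentage of 50-base words also found in another gene. Named genes were GFI1, the 10 members, all listed genes of the members' domains, in each other list the 3 called genes with the largest and the 3 with the smallest log2 fold change, and the most similar gene of each member with a mean of at least 100 counts. Ratios were compared by an exact two-sided permutation test. A floor of 3 counts per library was used where all libraries of a group were at 0, and floors cover counting error only. Alternatives were DESeq2 1.42.0, limma 3.58.1 (voom), other scalings and filters, the replicate block, the GC content and length correction, and leaving out each library.

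Library totals were 14882914 to 17692882, so a floor of 3 counts is 0.170 to 0.202 CPM. Libraries of a group differed beyond sampling noise (chi-square per degree of freedom 1.87 to 5.10), and none was counted as a repeat of another. On simulated counts with 200 genes changed by 1 on the log2 scale among 17514, edgeR called 90.5% of the changed genes, while genes left as they were made up 6.22% of the calls. A simulated GC trend gave 11680 calls without the correction and 0 with it. That trend was linear in GC content and no gene was changed otherwise, so the result shows only that such a trend is removed. Whether the trend in the data is technical, and whether the correction also removes real changes that follow GC content, was not tested.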

Additional observations from a re-analysis of the deposited data

How the results depend on the processing

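Under 15 alternatives, the counts of members called were 1 higher throughout and 3 to 5 lower. The 5 lower calls came without the filter on low counts and with DESeq2, where H19 was also tested (log2 fold change -5.69 and -5.19, which depend on the prior count and are no bound). The 3 came with the GC content and length correction, where the call of KCNQ1OT1 was lost (with and without the block), and with at least 10 counts in every library, where MEG3 was not tested. Of the members' values, 115 kept their sign and their side of the threshold. NNAT changed sign with the GC content and length correction (-0.36) and with that correction and the replicate block (-0.36), and MEST did without WT replicate 3 (0.051), its values with 1 library left out running from -0.91 to 0.051; none of these was called. Of the other imprinted genes, 11 were lower with the correction, and also 11 with the correction and block, against 17, and the other counts of called genes stayed within 1.5 times. The differences in log2 ratio kept their sign, and with 1 library left out ran from 2.88 to 3.56 for DLK1 to MEG3, from 4.04 to 4.50 for IGF2 to H19 and from -1.19 to -1.02 for CDKN1C to KCNQ1OT1. IGF2 to H19 had no value with the correction, since H19 was not in that fit. Below about 20 counts per library (H19, MEG3, MEST, PEG3), depth limits what can be seen. For PEG3, transcript sequence shared with another gene also leaves the level uncertain.

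The replicate numbers do not pair the libraries: correlations of deviations between same-numbered libraries were -0.00355, 0.0166 and 0.0235. With the replicate block 12573 genes were called, 12528 of them shared with the 12680 without it, and members were 1 higher and 4 lower. In the ratios, exact sign flips of the same-numbered differences gave p = 0.25, the smallest that 3 pairs allow. The block changed no member's call.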
